A study of Mus musculus with 14 samples.

Results

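The RNA-binding regulators of germ cell translation Dazl, Boll, Dnd1, Nanos3, Lin28b, Elavl2, Pum2 and Cpeb1 were followed through both Cbx2 experiments. They are 8 of the 24984 genes in the count tables and were taken by name as a group with a known role; no threshold on a measured value defines the group. All 8 were present in each table. The sorted cells were c-KIT-positive differentiating spermatogonia, and 14 libraries were made from C57BL/6J testes. The deleted group (2 animals) had the genotype Rosa26-CreERT2; Cbx2[Flox/Δ] and received tamoxifen, 200 µL at 20 mg/mL 3 times. Its oil controls (2 animals) were Rosa26-CreERT2; Cbx2[Flox/+] and received corn oil, so genotype and drug differed together, while CreERT2 and a floxed allele were carried by all 4 animals. CreERT2 at Rosa26 is not restricted to germ cells. The 23KRA group (5 animals) was Cbx2[23KRA/23KRA], in which lysines and arginines of the CaPS domain of CBX2 are replaced by alanine, and it was set against 5 Cbx2[+/+] animals with no treatment. The age of the animals is not given in the sources used here.

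CBX2 is a chromodomain subunit of Polycomb repressive complex 1, which acts on chromatin. Most of the proteins studied here act later, on messenger RNA in the cytoplasm. Male germ cells store many messages and translate them at a set stage. Most of these proteins bind short motifs in 3′ UTRs and change the poly(A) tail, translation or decay of the message. DAZL and BOLL, of the DAZ family, promote translation of bound messages. NANOS3 and DND1 bring messages to the CCR4-NOT deadenylase, and PUM2 is a Pumilio protein, the family that partners NANOS. LIN28B blocks the maturation of let-7 microRNAs, ELAVL2 binds U-rich and AU-rich elements, and CPEB1 binds the cytoplasmic polyadenylation element and controls tail length.

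The motifs of some of these proteins were also found in the messages of the 8 genes themselves, so the matches are shown before the levels. In the longest annotated 3′ UTR of each gene (GENCODE, GRCm38), the Pumilio motif TGTANATA, the cytoplasmic polyadenylation element TTTTAT and CTACCTC, the match to the let-7 seed, were searched on the transcript strand only, since they act in RNA, and no match overlapped one of another motif. Similar length means at least 0.8 times the length of the gene's 3′ UTR and at most the inverse of that. Lin28b stood out by its let-7 matches, with 4 in a 3′ UTR of 4445 bases, where 24.4% of 1358 mouse 3′ UTRs of similar length held any. Mature let-7 sequences (RefSeq, GRCm38.p6) are shown because the 9 let-7 and miR-98 names matched share 1 seed, printed in capitals (bases 2 to 8):
mmu-let-7a-5p chr13:48538239-48538260: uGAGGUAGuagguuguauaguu
mmu-let-7d-5p chr13:48536078-48536099: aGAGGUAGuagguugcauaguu
mmu-let-7g-5p chr9:106178846-106178867: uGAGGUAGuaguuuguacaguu
mmu-miR-98-5p chrX:151913229-151913250: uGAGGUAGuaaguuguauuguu
The 4 matches in Lin28b (minus strand, sequence of the transcript, match in capitals) were:
Lin28b chr10:45381011-45381040: gggcgggaagtCTACCTCatgcaagcacag
Lin28b chr10:45378637-45378666: cttgttagtaaCTACCTCtgagtttgacat
Lin28b chr10:45378465-45378494: acagcacatggCTACCTCccagctaccaca
Lin28b chr10:45377049-45377078: gatggcaccgaCTACCTCttcaatcacttg

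Cpeb1 was the only other of the 8 genes with a let-7 seed match, with 1 in 1315 bases, where 9.62% of 3088 3′ UTRs of similar length held any. Pumilio motifs were found in Elavl2 (3), Lin28b (2), Pum2 itself (2) and Cpeb1 (1), and in none of Dazl, Boll, Dnd1 and Nanos3. Among 3′ UTRs of similar length, 40.0% held a Pumilio motif for Elavl2, 55.7% for Lin28b, 43.9% for Pum2 and 24.8% for Cpeb1. The matches in Pum2 (plus strand) are printed because they lie in the message of a Pumilio protein:
Pum2 chr12:8750154-8750183: gtttatagagaTGTATATAgaattatagtt
Pum2 chr12:8750407-8750436: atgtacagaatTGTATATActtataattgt
The polyadenylation element, the shortest of the motifs, was searched only as the exact string TTTTAT. In this form it was found in 7 of the 8 genes, with Nanos3 the exception at a 3′ UTR of 172 bases. Other forms of the element and the distance to the poly(A) signal were not examined. Over all 21020 mouse 3′ UTRs searched, 51.6% held this element, 23.2% the Pumilio motif and 9.02% the let-7 match. Dazl had 5 matches in 1854 bases and Boll 4 in 1786 bases, where 76.0% and 74.7% of 3′ UTRs of similar length held any and the median was 1. Cpeb1, which encodes the protein that binds the element, had 2, where 62.6% of 3′ UTRs of similar length held any and the median was 1. The element was also found in Lin28b (10), Elavl2 (7), Pum2 (5) and Dnd1 (2), where 93.2%, 83.4%, 85.7% and 26.0% of 3′ UTRs of similar length held any, in that order. The median number of matches in those 3′ UTRs was 4, 2, 3 and 0 in the same order, so counts above the median were not particular to Dazl and Boll. Matches from Dazl and Cpeb1 (minus strand) show the element in its context:
Dazl chr17:50281115-50281144: tagattgcatagTTTTATgttaaacttgtt
Dazl chr17:50280331-50280360: ctgaaaaattgtTTTTATaaaaacattcaa
Cpeb1 chr7:81347586-81347615: agagaaaaattaTTTTATttaaaactggac
Such matches describe the annotated sequence, and binding was not measured here.

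**Figure D1:**
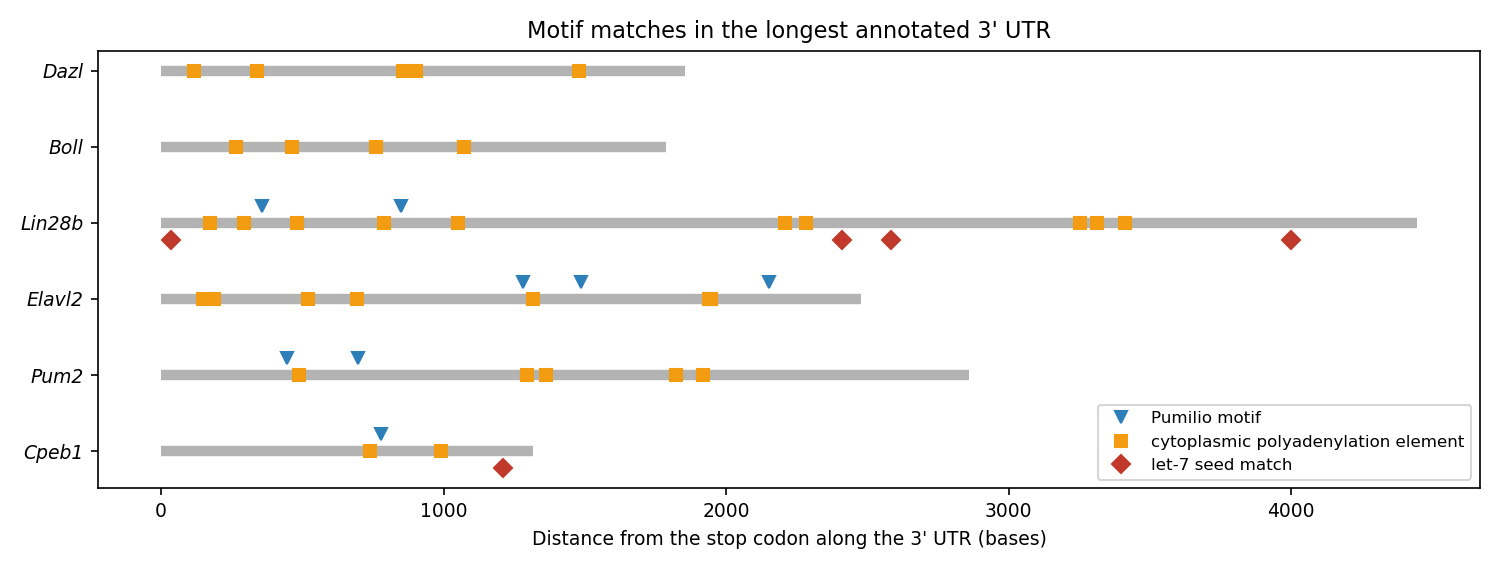
Position of motif matches in the longest annotated 3′ UTR of 6 genes. The x axis is the distance from the stop codon in bases, and grey bars are the 3′ UTRs. Symbols are Pumilio motifs, cytoplasmic polyadenylation elements (TTTTAT) and let-7 seed matches. Dnd1, with 2 polyadenylation elements, is not drawn, and Nanos3 had no match. Lin28b has 4 let-7 matches. Polyadenylation elements number 10 in Lin28b, 7 in Elavl2, 5 in Dazl and in Pum2, 4 in Boll and 2 in Cpeb1. Dazl and Boll have no Pumilio motif.

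Animal numbers in the protocols (2 per deletion group and 5 per 23KRA group) equal the library numbers, so each library is taken as 1 animal. The deletion libraries (a SMART-Seq mRNA kit) held 28169990 to 31166500 counts, and the 23KRA libraries (a stranded total RNA kit with ribosomal depletion, per the protocol, although the molecule label reads polyA RNA) 14562564 to 19814511. Because the kits differ, each experiment was normalized and tested alone, and levels are given in CPM, the count relative to the TMM-scaled library total. Cbx2 itself had 78.5 and 86.5 CPM in deleted, against 93.9 and 97.7 CPM in oil control libraries, a fold of 0.862 (log2 -0.21, SE 0.12; edgeR adjusted p = 0.971). Its counts cover the whole gene and the floxed interval is not given in the sources used here, so they do not measure how far the allele was deleted. In 23KRA animals, whose allele changes the protein, Cbx2 was at 64.1 ± 17.4 CPM, against 73.0 ± 12.6 CPM in wild type (SD, n = 5 each; edgeR adjusted p = 1.00). Kit, the marker of the sort, averaged 236.5 CPM over the deletion libraries and 256.3 CPM over the 23KRA libraries, and Stra8, another gene of differentiating spermatogonia, 550.3 and 695.6 CPM. Messages of later germ cells were present too. The summed level of 8 spermatid markers, Prm1 among them, was 2370 and 2730 CPM in deleted, 2742 and 3104 CPM in oil control, 230 to 1040 CPM in 23KRA and 277 to 1039 CPM in wild-type libraries. In such bulk samples fewer cells of a type and less RNA per cell cannot be told apart.

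Dazl was by far the most abundant of the 8 genes in both experiments. Per kilobase of exon it reached 863 ± 74.6 CPM per kb over the 4 deletion libraries (SD), the rank of 6 among 16539 tested genes with a length, and 189 ± 17.3 CPM per kb over the 10 23KRA libraries (SD), the rank of 144 among 14084. It took 0.294 to 0.355% of all counts in the deletion libraries and 0.0593 to 0.0788% in the 23KRA libraries. In the deletion libraries Cpeb1 followed at 34.6 ± 2.38 CPM per kb, then Boll (24.4 ± 1.94), Elavl2 (20.8 ± 2.65), Dnd1 (19.8 ± 1.17), Pum2 (11.9 ± 0.80), Lin28b (6.73 ± 0.32) and Nanos3 (4.40 ± 1.11; CPM per kb, SD, 4 libraries). In this order Boll overlapped Elavl2 and Elavl2 overlapped Dnd1 over the libraries, and the other neighbours did not overlap.

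The order in the 23KRA libraries was different below Dazl. Pum2 came next at 40.6 ± 3.55 CPM per kb, then Lin28b (17.1 ± 1.66), Boll (17.1 ± 2.85), Elavl2 (14.3 ± 2.80), Cpeb1 (13.8 ± 2.22), Dnd1 (4.93 ± 1.05) and Nanos3 (0.935 ± 1.19; CPM per kb, SD, 10 libraries). Lin28b, Boll, Elavl2 and Cpeb1 overlapped, each with the next. The ratio of mean CPM, oil control over wild type, was 6.26 for Nanos3, which had few counts, 4.59 for Dazl, 4.08 for Dnd1 and 2.81 for Cpeb1. It was 1.54 for Boll and 1.43 for Elavl2, but 0.391 for Lin28b and 0.304 for Pum2. Over 13979 genes tested in both experiments the median ratio was 1.35, with the middle 50% of genes between 0.753 and 2.31. Library kit, animals and treatment differ together between the experiments and cannot be told apart, so these ratios are descriptions only.

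**Figure D2:**
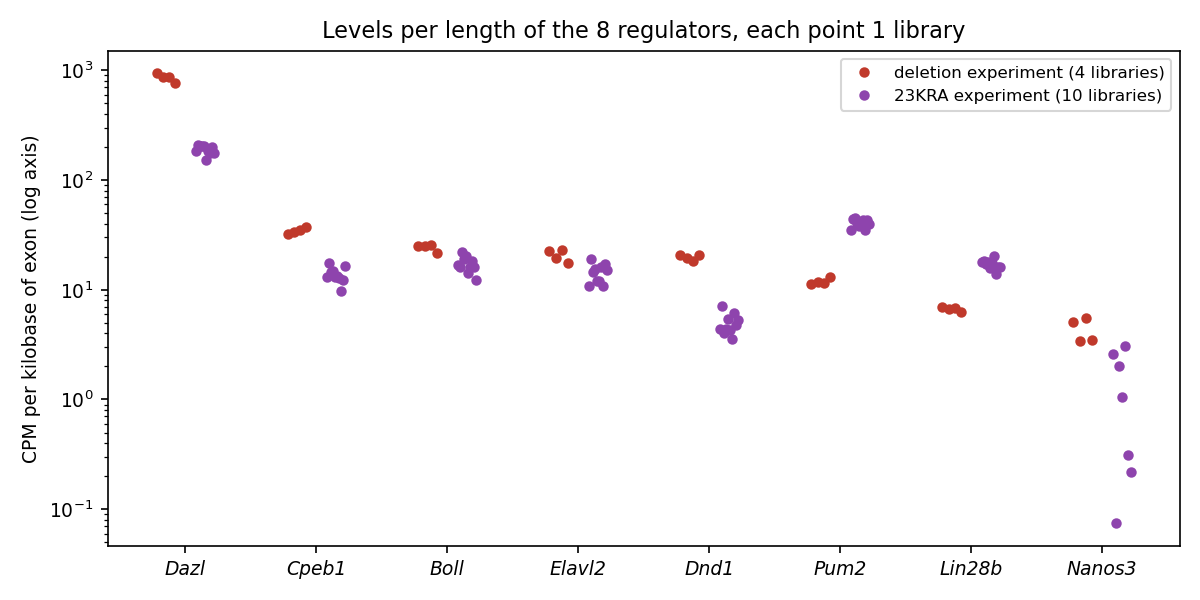
Level of the 8 regulators in CPM per kilobase of exon (log axis), each point 1 library, with deletion libraries in red and 23KRA libraries in purple. Dazl lies above all others in each experiment, and Pum2 and Lin28b are higher in the 23KRA libraries, unlike the other 6 genes; 3 libraries of the 23KRA experiment with no Nanos3 count are not drawn.

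None of the 8 genes passed the test in either comparison. In the deletion, all 8 met the count filter and 0 were called at an adjusted p under 0.05 by edgeR's quasi-likelihood test, where 0.012% of 16725 genes were called; DESeq2 called 0 as well, and neither tool gave any of the 8 an unadjusted p under 0.05, against 4.74% of all genes with edgeR. In the 23KRA comparison 7 met the filter, Nanos3 being too low, and 0 were called, where 0% of 14208 genes were called. There DESeq2 also called 0, and by both tools 2 of the 7 genes, Dazl and Boll, had an unadjusted p under 0.05, against 3.04% of all genes with edgeR; both were higher, as were 1.68% of all genes at that p. In the deletion 5 of the 8 were above 0 and 3 below, with a median log2 fold change of 0.047, beside -0.0044 over all genes tested. Of all genes tested, 49.0% were above 0 there. In the 23KRA comparison all 7 genes that could be tested were above 0, with a median of 0.080, beside 0.0034 over all genes tested, and 50.8% of those were above 0. Groups did not overlap for 1 of the 8 genes in the deletion, Cpeb1, where 33.1% of all genes did not overlap in either direction, and for 0 of the 7 in the 23KRA comparison, where 0.711% did not.

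**Figure D3:**
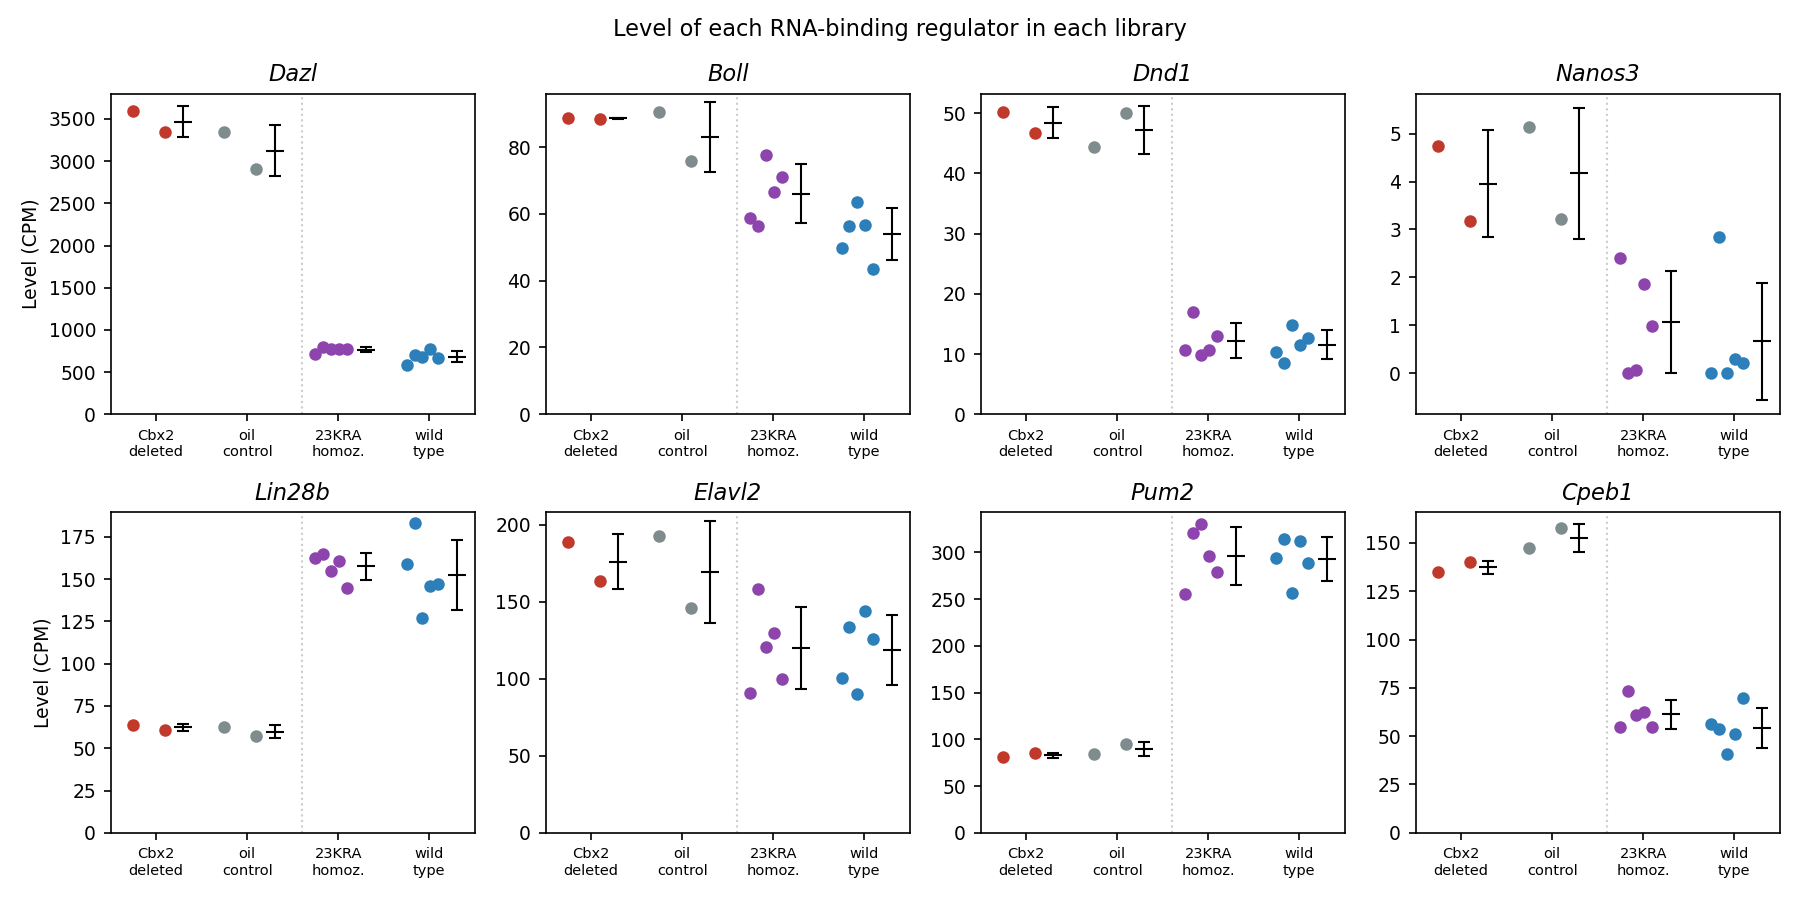
CPM of each regulator in each library; points are libraries in replicate order, and the horizontal mark and bar are the mean and SD of the group (n = 2 in deleted and oil control, n = 5 in 23KRA homozygous and wild type). The dotted line parts the experiments, which were made with different kits; within each experiment the groups overlap for every gene except Cpeb1 in the deletion.

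Dazl (chromosome 17, 50279395 to 50293636, minus strand; gene positions here are on GRCm38), needed for germ cell development in mice, had 3596 and 3341 CPM in deleted replicates 1 and 2, against 3342 and 2909 CPM in oil control replicates 1 and 2. The groups overlapped narrowly, deleted replicate 2 lying just under oil control replicate 1. The means were 3468 ± 181 CPM in deleted and 3126 ± 306 CPM in oil control animals (SD, n = 2), a fold of 1.11 (log2 0.15, SE 0.11; edgeR adjusted p = 0.971), and the 95% interval of the fold ran from 0.954 to 1.29. With 1 library left out the log2 fold change ran from 0.053 without oil control replicate 2 to 0.26 without oil control replicate 1, and only the fit without oil control replicate 1 gave an unadjusted p under 0.05.

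In the 23KRA experiment Dazl had 711, 792, 777, 776 and 774 CPM in homozygous replicates 1 to 5, against 586, 703, 674, 768 and 671 CPM in wild-type replicates 1 to 5. Of the homozygous libraries, 4 of 5 lay above every wild-type library, and the wild-type libraries were more spread out. The means were 766 ± 31.8 CPM in homozygotes and 680 ± 65.5 CPM in wild type (SD, n = 5), a fold of 1.13 with an interval of 1.02 to 1.247 (log2 0.17, SE 0.071). By p it held the rank of 210 among 14208 genes, and it did not pass (edgeR adjusted p = 1.00). Its unadjusted p was under 0.05 in 8 of the 10 fits that left out 1 library, and not without wild-type replicate 1 or homozygous replicate 3. The summed level of 8 markers of meiotic prophase stood beside Dazl at 3879 ± 236 CPM in deleted and 3579 ± 99.0 CPM in oil control animals (SD, n = 2). It was 2593 ± 365 CPM in 23KRA and 2521 ± 182 CPM in wild-type animals (SD, n = 5). Spermatogonia and later germ cells cannot be told apart here as sources of these messages. Their part in the Dazl values was not tested.

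Boll (chromosome 1, 55248658 to 55363469, minus strand), whose protein is needed for spermiogenesis in mice and whose message is best known from spermatocytes, had 88.8 and 88.5 CPM in deleted replicates 1 and 2, against 90.5 and 75.7 CPM in oil control replicates. The deleted libraries lay between the controls, with a fold of 1.07 and an interval of 0.900 to 1.26 (edgeR adjusted p = 0.974). Among the 23KRA and wild-type libraries it had 58.7, 56.4, 77.7, 66.6 and 71.0 CPM in homozygous replicates 1 to 5, against 49.9, 56.5, 63.7, 56.6 and 43.4 CPM in wild-type replicates 1 to 5. Homozygous replicates 3 to 5 were above every wild-type library, and the groups overlapped. The means were 66.1 ± 8.76 CPM in homozygotes and 54.0 ± 7.67 CPM in wild type (SD, n = 5), the widest fold of the 7 tested genes at 1.22, with an interval of 1.02 to 1.47 (log2 0.29, SE 0.13; edgeR adjusted p = 1.00). Its unadjusted p was under 0.05 in 5 of the 10 fits that left out 1 library, and the log2 fold change ran from 0.22 to 0.36.

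Later germ cells are a source of Boll messages, so their markers stand beside it. The summed level of 8 markers of pachytene and later spermatocytes, all 8 of them detected, averaged 275 ± 77.7 CPM in homozygotes and 307 ± 75.1 CPM in wild type, and that of 8 spermatid markers averaged 579 ± 308 CPM in homozygotes and 698 ± 287 CPM in wild type (SD, n = 5). The summed level of the 8 meiotic prophase markers averaged 2593 ± 365 CPM in homozygotes and 2521 ± 182 CPM in wild type (SD, n = 5). The part of these marker sets in the Boll values was not tested.

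Nanos3 and Dnd1, which act together on messages sent to the deadenylase, were the lowest of the 8 per length in the 23KRA libraries. Nanos3 (chromosome 8, 84173731 to 84185217, minus strand) had 4.74 and 3.17 CPM in deleted replicates 1 and 2, against 5.14 and 3.21 CPM in oil control replicates 1 and 2. Replicate 1 was higher than replicate 2 in each group, by more than the groups differed (fold 0.952, interval 0.662 to 1.37; edgeR adjusted p = 0.986). Its counts in the 23KRA experiment were 49, 0, 1, 28 and 17 in homozygous replicates 1 to 5 and 0, 41, 0, 5 and 3 in wild-type replicates 1 to 5. A count of 0 allows up to 0.198 CPM in homozygous replicate 2, and 0.151 and 0.193 CPM in wild-type replicates 1 and 3 (3 counts, counting error only). High and empty libraries occurred in both groups, with a mean of 1.06 ± 1.07 CPM in homozygotes and 0.666 ± 1.22 CPM in wild type (SD, n = 5). In a fit with no filter the log2 fold change was 0.68 with an SE of 1.36 (edgeR adjusted p = 0.984).

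Dnd1 had 50.3 and 46.7 CPM in deleted, against 44.4 and 50.0 CPM in oil control libraries, and the order of the replicates was opposite in the groups. The fold was 1.03, with an interval of 0.857 to 1.23 (edgeR adjusted p = 0.986). Among 23KRA and wild-type animals it was at 12.2 ± 2.93 CPM in homozygotes and 11.6 ± 2.38 CPM in wild type (SD, n = 5), with ranges of 9.79 to 17.0 and 8.60 to 14.9 CPM. The interval of its fold there, 0.736 to 1.52, was the widest of the 7 tested genes. Dnd1 (chromosome 18, 36763671 to 36766214, minus strand) shares 140 bases of exon, 5.80% of its own, with Wdr55 on the opposite strand. Whether counting used strand is not given in the sources used here, so some counts may belong to either gene. Wdr55 was at 54.0 CPM in deleted and 50.3 CPM in oil control animals, and at 36.9 CPM in 23KRA and 33.7 CPM in wild-type animals.

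Lin28b (chromosome 10, 45376620 to 45486395, minus strand), the let-7 inhibitor with the 4 seed matches printed earlier, varied little in the deletion. Its highest library was 1.12 times its lowest there, and 1.44 times in the 23KRA experiment. It had 63.8 and 60.9 CPM in deleted and 62.4 and 57.0 CPM in oil control replicates 1 and 2, and replicate 1 was the higher in each group. The fold was 1.04 with an interval of 0.878 to 1.24 (edgeR adjusted p = 0.977). In the 23KRA experiment it ranged from 145 to 165 CPM in homozygotes and from 127 to 183 CPM in wild type, so that all homozygous libraries lay within the wild-type range (fold 1.03, interval 0.901 to 1.18; edgeR adjusted p = 1.00).

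Elavl2 (chromosome 4, 91250763 to 91400785, minus strand) varied more between libraries than between groups. It had 189 and 163 CPM in deleted replicates 1 and 2, against 193 and 146 CPM in oil control replicates 1 and 2. As for Nanos3, replicate 1 was the higher in each group (fold 1.04, interval 0.871 to 1.24; edgeR adjusted p = 0.982). Among the 23KRA and wild-type libraries it ranged from 90.7 to 158 CPM in homozygotes and from 90.1 to 144 CPM in wild type, with nearly equal means of 120 ± 26.6 and 119 ± 22.7 CPM (SD, n = 5; fold 1.01, interval 0.821 to 1.24).

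Pum2 (chromosome 12, 8674134 to 8752581, plus strand) was at 81.2 and 85.0 CPM in deleted and 84.0 and 94.6 CPM in oil control replicates 1 and 2, with replicate 2 the higher in each group. The fold was 0.931 with an interval of 0.789 to 1.10 (edgeR adjusted p = 0.974), and the log2 fold change of -0.10 ran from -0.18 without oil control replicate 1 to -0.014 without oil control replicate 2. In the 23KRA experiment it averaged 296 ± 30.7 CPM in homozygotes and 293 ± 23.5 CPM in wild type (SD, n = 5), and the interval of its fold, 0.895 to 1.14, lay close around 1.

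Cpeb1 (chromosome 7, 81347026 to 81455465, minus strand), which in mice is needed for translation of synaptonemal complex messages, had 135 and 140 CPM in deleted replicates 1 and 2, against 147 and 158 CPM in oil control replicates 1 and 2. Each deleted library was below each control, which with 2 animals a group held in that direction for 17.5% of all genes tested. The fold was 0.901 with an interval of 0.771 to 1.05 (log2 -0.15, SE 0.11; edgeR adjusted p = 0.971). In the 23KRA experiment the sign was opposite, at 54.9, 73.3, 61.1, 62.6 and 54.9 CPM in homozygous replicates 1 to 5, against 56.3, 53.6, 40.8, 51.4 and 69.6 CPM in wild-type replicates 1 to 5. The groups overlapped, wild-type replicate 5 being second only to homozygous replicate 2 (fold 1.13, interval 0.926 to 1.38; edgeR adjusted p = 1.00).

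**Figure D4:**
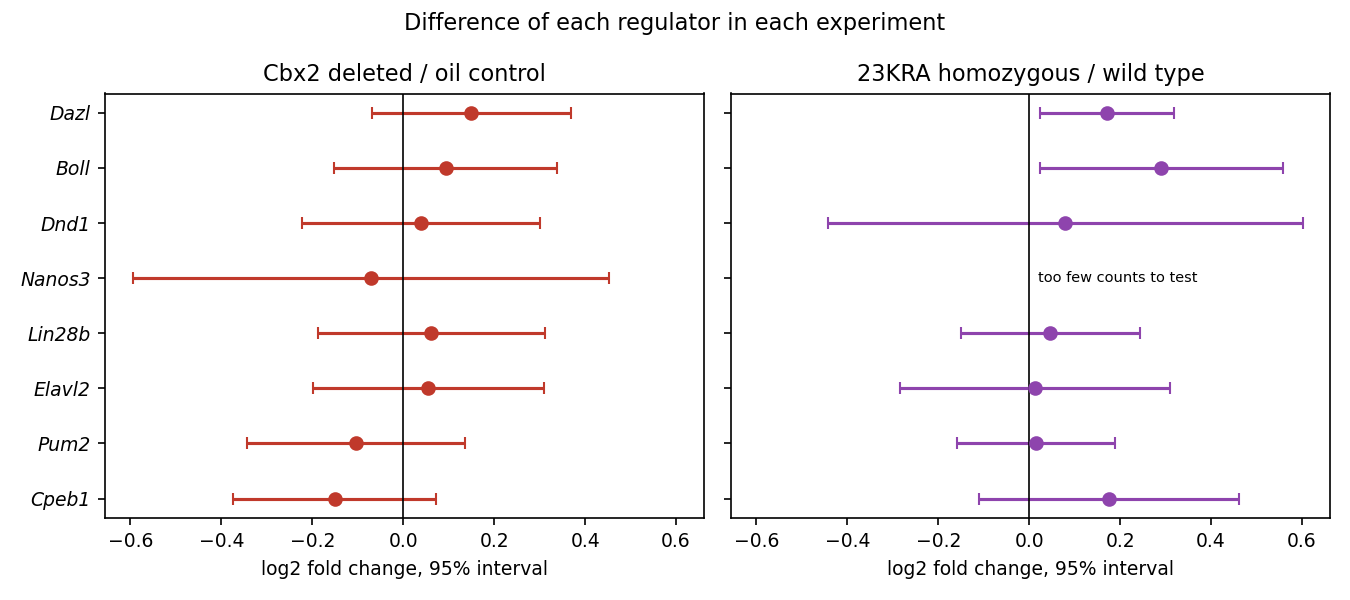
Log2 fold change of each regulator with its 95% interval from the edgeR fit, deleted over oil control on the left and 23KRA homozygous over wild type on the right. Every interval on the left holds 0; on the right those of Dazl and Boll lie just above 0 before adjustment for all genes, and Nanos3 had too few counts.

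The effects in the 2 experiments were also set against each other in 1 fit of all 14 libraries. No difference passed for any of the 8 genes, and 0% of the 17227 genes tested were called, by DESeq2 too; 0.65% had an unadjusted edgeR p under 0.05 and none of the 8 was among them. The widest of these differences among the 7 genes tested in both experiments was that of Cpeb1, with a 23KRA effect minus deletion effect of 0.34 on the log2 scale (SE 0.23; edgeR adjusted p = 1.00). For Dazl the difference was 0.037 (SE 0.13).

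The paralogs of these genes gave no call either. Of 11 paralogs, all were tested in the deletion, with a median log2 fold change of -0.066 (5 positive, 6 negative). Of all genes tested there, 49.0% were above 0. Neither edgeR nor DESeq2 called a paralog, where edgeR called 0.012% of all genes. Only Cpeb2, a CPEB1 relative, had an unadjusted edgeR p under 0.05, which is 1 of 11 beside 4.74% of all genes. Cpeb2 was at 101 ± 20.1 CPM in deleted and 124 ± 19.3 CPM in oil control animals (SD, n = 2; log2 -0.30, SE 0.13). In the 23KRA comparison 10 were tested, with 6 above 0 and 4 below (median 0.037), where 50.8% of all genes were above 0. By either tool 0 were called and 0 had an unadjusted p under 0.05. With edgeR, 0% of all genes were called and 3.04% had such a p.

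The NANOS paralog Nanos1 was above 0 in each comparison without passing. It was at 82.7 ± 1.85 CPM in deleted and 71.9 ± 2.82 CPM in oil control animals (SD, n = 2; log2 0.20, SE 0.12), and at 52.2 ± 7.71 CPM in 23KRA and 43.9 ± 2.86 CPM in wild-type animals (SD, n = 5; log2 0.25, SE 0.13). Nanos2, which keeps stem cells undifferentiated in mice, had few counts, at 0.385 CPM in deleted and 0.207 CPM in oil control animals, and did not meet the filter in the 23KRA experiment. Lin28a, the other let-7 inhibitor, was at 39.8 and 36.7 CPM in deleted and oil control animals and at 42.2 and 39.2 CPM in 23KRA and wild-type animals.

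Of the ELAVL paralogs, the ubiquitous Elavl1 was at 293 against 288 CPM in deleted and oil control animals and 120 against 119 CPM in 23KRA and wild-type animals. The neuronal Elavl3 was at 4.76 against 6.36 CPM and at 23.6 against 26.9 CPM in the same pairs, and Elavl4 at 7.58 against 8.91 CPM and 4.91 against 3.69 CPM. Pum3, a nucleolar relative of Pum2, was at 153 against 137 CPM and 199 against 207 CPM. Cpeb3 was at 20.8 against 21.8 CPM and 10.1 against 12.4 CPM, Cpeb4 at 61.6 against 66.8 CPM and 192 against 180 CPM, and Cpeb2 at 58.1 against 65.6 CPM in the 23KRA pair. None of these differences passed.

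In the CCR4-NOT deadenylase and its TOB and BTG partners, 15 genes were tested in each comparison and 0 were called. Of all genes tested, edgeR called 0.012% in the deletion and 0% in the 23KRA comparison. The median log2 fold change of the 15 was -0.0018 in the deletion and -0.0035 in the 23KRA comparison. Cnot1, the scaffold, was at 346 against 305 CPM in deleted and oil control animals and 703 against 711 CPM in 23KRA and wild-type animals, and Cnot7, a catalytic subunit, at 246 against 223 CPM in the deletion. Cnot10 was at 264 against 251 CPM and at 198 against 204 CPM, and Tob2 at 52.7 against 61.4 CPM in the deletion. In the 23KRA comparison 2 of the 15 had an unadjusted edgeR p under 0.05, beside 3.04% of all genes, and they lay on opposite sides of 0. Cnot3 was at 163 against 188 CPM in 23KRA and wild-type animals (log2 -0.21, SE 0.097) and Cnot7 at 141 against 121 CPM (log2 0.22, SE 0.10). In the deletion 0 of the 15 had such a p, beside 4.74% of all genes.

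For cytoplasmic polyadenylation and cap binding, 18 genes were tested in each comparison and 0 were called (median 0.058 in the deletion and -0.013 in the 23KRA comparison). Over all genes the called share with edgeR was 0.012% in the deletion and 0% in the 23KRA comparison. An unadjusted edgeR p under 0.05 was seen for 1 of the 18 in the deletion and 2 of the 18 in the 23KRA comparison, beside 4.74% and 3.04% of all genes. Eif4g2, a translation initiation factor, had the highest CPM of them, at 1356 against 1246 CPM in deleted and oil control animals and 875 against 820 CPM in 23KRA and wild-type animals. Pabpc1, the cytoplasmic poly(A)-binding protein, was at 306 against 347 CPM and at 629 against 684 CPM in these pairs. Eif4e, the cap-binding protein, had the smallest p in the deletion (257 against 218 CPM, log2 0.24, SE 0.11; edgeR adjusted p = 0.971), and Eif4g3, a scaffold of cap binding, in the 23KRA comparison (298 against 338 CPM, log2 -0.18, SE 0.077; edgeR adjusted p = 1.00). Paip2, an inhibitor of poly(A)-binding protein, was the other gene with such a p in the 23KRA comparison, at 271 against 306 CPM in 23KRA and wild-type animals (log2 -0.18, SE 0.081), while in the deletion it was at 582 against 541 CPM. Eif4g1 had a log2 fold change of -0.16 (SE 0.087) in the 23KRA comparison.

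Around Lin28b, the genes that process and turn over let-7 were called in neither comparison. In the deletion 0 of 13 were called (median 0.013), and in the 23KRA comparison 0 of 12 (median -0.023). Over all genes edgeR called 0.012% and 0% in these comparisons. By either tool 0 of the let-7 genes had an unadjusted p under 0.05, where 4.74% and 3.04% of all genes had one with edgeR. Drosha, which cuts the primary transcript, was at 252 against 250 CPM in deleted and oil control animals and 425 against 440 CPM in 23KRA and wild-type animals. Dicer1, which cuts the hairpin, was at 155 against 149 CPM and at 287 against 312 CPM. Tut4, which adds uridine to the LIN28-bound hairpin, was at 171 against 182 CPM and at 418 CPM in both groups of the 23KRA experiment. Trim71, itself a let-7 target, was at 52.2 against 46.6 CPM in the deletion.

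Among other germ cell RNA-binding proteins 0 of 24 were called in each comparison and 0 had an unadjusted p under 0.05 by either tool. With edgeR, 4.74% of all genes had such a p in the deletion and 3.04% in the 23KRA comparison. The share of all genes called by edgeR was 0.012% and 0% in these comparisons. The median of the 24 was -0.0087 in the deletion (10 above 0, 14 below) and -0.049 in the 23KRA comparison (7 above 0, 17 below). Of all genes tested, 49.0% and 50.8% were above 0. The DEAD-box helicase Ddx4 was at 805 against 736 CPM in deleted and oil control animals and 612 against 633 CPM in 23KRA and wild-type animals. Ybx1, a cold shock domain protein, was at 563 against 547 CPM and at 687 against 725 CPM. Meioc, a meiotic partner of YTHDC2, was at 577 against 532 CPM in the deletion and Mex3b at 6.04 against 7.38 CPM, while Fxr1, of the fragile X family, was at 482 against 480 CPM and Khdrbs1 at 189 against 211 CPM in 23KRA and wild-type animals.

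Messages that DAZL has been reported to bind and promote in mice (Ddx4, Sycp1, Sycp3 and Tex19.1) were read beside Dazl. Ddx4 is also one of the other germ cell RNA-binding proteins, and Sycp1 and Sycp3 are also among the markers of meiotic prophase. All 4 were above 0 in the deletion (median 0.15) and 2 of 4 in the 23KRA comparison (median -0.0032). Of all genes tested, 49.0% and 50.8% were above 0 in these comparisons. None of the 4 was called or had an unadjusted p under 0.05 in either, by edgeR or DESeq2. With edgeR, 4.74% and 3.04% of all genes had such a p, and 0.012% and 0% were called. Sycp3, of the synaptonemal complex, was at 1193 ± 159 CPM in deleted and 1048 ± 48.8 CPM in oil control animals (SD, n = 2), and at 302 ± 44.2 CPM in 23KRA and 292 ± 31.8 CPM in wild-type animals (SD, n = 5). Sycp1 was at 1358 against 1291 CPM and at 1183 against 1164 CPM in these pairs. Such values are message levels, and translation was not measured.

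**Figure D5:**
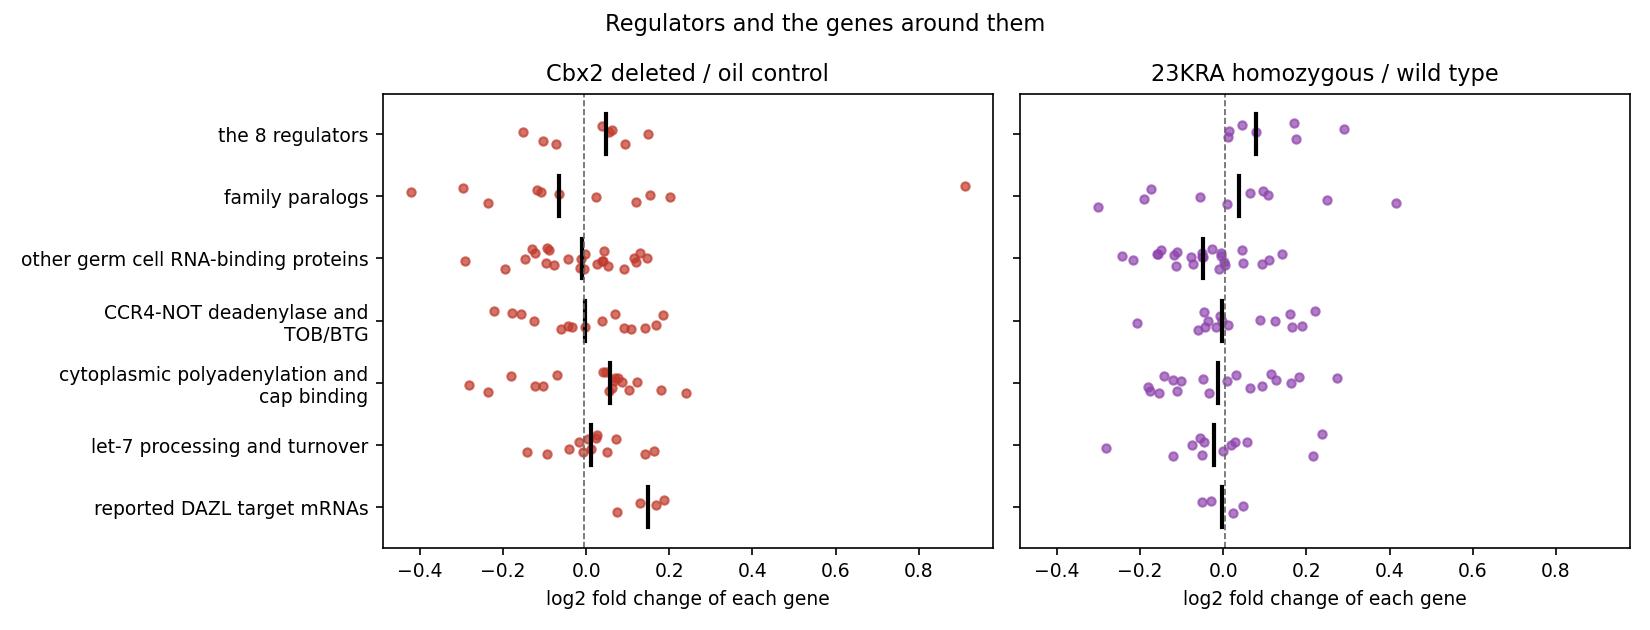
Log2 fold change of each tested gene in the 8 regulators and 6 lists around them, deleted over oil control on the left and 23KRA homozygous over wild type on the right; points are genes, black bars list medians, and the dashed line the median of all genes tested. No gene shown passed, and list medians lie between -0.066 and 0.15.

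For the 7 regulators that reached 10 CPM in both experiments, which leaves out Nanos3, the 2 genes whose libraries most followed each were sought by the root mean square difference of log2 CPM over all 14 libraries, after centring each gene within its experiment, among 8195 other genes of at least 10 CPM. For Dazl these were Rnf17 (0.056), a Tudor-domain gene of germ cells, and Zfp148 (0.057), where the median gene stood at 0.220. For Boll they were Mis12 (0.098) and Katna1 (0.102), for Dnd1 Gabarapl2 (0.120) and Fbxl12 (0.122), and for Lin28b Sem1 (0.056) and Utp6 (0.066). For Elavl2 they were Fcf1 (0.088) and Snrpe (0.101), for Pum2 Tinf2 (0.070) and Epn2 (0.072), and for Cpeb1 Cd164 (0.110) and Cmtm6 (0.112). The smallest of 8195 differences are low by selection, and genes that vary little lie near each other by this measure. Whether these genes share any regulation with the regulators was not tested.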

How the data were processed

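Each experiment has 1 deposited table of whole-number counts by gene, not normalized by the authors. The submitters' processing notes name the mm10 build, STAR 2.5.3, Subread 1.5.0 with featureCounts, Trim Galore 0.4.3 and SAMtools 1.4.1. Gene models, strand use and multi-mapping reads in that counting are not described in the sources used here. Columns were matched to libraries by name.

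Genes were kept by filterByExpr and scaled by TMM in edgeR 4.0.16 (R 4.3.3, Python 3.11.15). Comparisons used its quasi-likelihood F test (two-sided), with p-values adjusted by Benjamini-Hochberg over all genes tested and called at 0.05. The SE is the log2 fold change divided by the square root of F, and the 95% interval uses it with the fit's degrees of freedom, unadjusted. The steps were run on simulated data in which the set changes were larger than the fold of any regulator that met the count filter. That run does not measure power at the folds of these genes. DESeq2 1.42.0, its size factors, no filter, a replicate block and left-out libraries were alternatives. Exon lengths, positions and 3′ UTRs are from GENCODE on GRCm38. Named genes are the 8 regulators, Cbx2, all tested paralogs, and of each other list those that passed or else the 3 of highest CPM and the 1 of smallest p. Pattern likeness used log2(CPM + 0.5). The values of 1 paralog are not reported here. Wdr55, Kit, Stra8 and Prm1 were added for context. The 8 genes share a role and were named with no threshold on a value, but they, the lists and the tests were chosen with earlier results of these data known. Same-numbered libraries correlated in their deviations at 0.414 in the deletion and at -0.0429 to 0.429 in the 23KRA experiment, and the labels do not say that the numbers pair animals. Counting intervals do not cover amplification.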

Additional observations from a re-analysis of the deposited data

Results flagged for a closer look

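Within groups of 5 libraries, 18 groups of values were checked for a library far from the others, of which chance flags about 1 in 20. Dazl in homozygous replicate 1, at 710.5 CPM, lay below the other 4 homozygous libraries, which were within 774 and 792 CPM. Nanos3 in wild-type replicate 2, at 2.84 CPM, lay above the other wild-type libraries, which were at 0 to 0.289 CPM.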

How the results depend on the processing

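In the alternatives run, none of the 8 genes was called in either comparison or in their difference. Genes called in the deletion were 2 with all libraries, 8 with no filter, 1 by DESeq2, 62 with a replicate block and 2 to 73 with a library left out, 11 without oil control replicate 1 and 73 without deleted replicate 2. The replicate block gave 2 calls in the 23KRA comparison, against 0, and the smallest p of the 8 there was that of Dazl (log2 0.18, edgeR adjusted p = 0.469); in the deletion Dazl under the block was at 0.15 (edgeR adjusted p = 0.376). Without each library in turn, log2 fold changes in the deletion ran from -0.029 to 0.24 for Boll, -0.034 to 0.13 for Dnd1, -0.39 to 0.31 for Nanos3, -0.0012 to 0.14 for Lin28b and -0.13 to 0.28 for Elavl2, so that their signs are not fixed, while Dazl (0.053 to 0.26), Pum2 (-0.18 to -0.014) and Cpeb1 (-0.19 to -0.10) kept their sign; the animal left alone in its group was assumed to vary like the other group. In the 23KRA comparison they ran from -0.068 to 0.19 for Dnd1, -0.012 to 0.12 for Lin28b, -0.11 to 0.091 for Elavl2 and -0.037 to 0.055 for Pum2, while Dazl (0.12 to 0.22), Boll (0.22 to 0.36) and Cpeb1 (0.089 to 0.28) kept their sign. Leaving out wild-type replicates 2 and 3, the 2 of lowest gene detection, Elavl2 was at -0.042 and Pum2 at -0.011. In that fit Cpeb1 was at 0.055, Boll at 0.40, Dazl at 0.18, Dnd1 at 0.094 and Lin28b at 0.063. Differences between the experiments ran from -0.066 to 0.14 for Dazl, -0.090 to 0.16 for Dnd1, -0.064 to 0.076 for Lin28b and -0.24 to 0.16 for Elavl2 with a library left out, and for Lin28b were -0.0099 with DESeq2 size factors, -0.012 with no filter and -0.010 by DESeq2. The cause of these shifts was not tested. In the 23KRA libraries Nanos3 had 0 to 49 counts and Dnd1 124 to 258, and counts of 0 set only an upper limit.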
